A study of Mus musculus with 12 samples.

Results

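The transcripts described here belong to 35 genes of cholesterol metabolism, taken by gene name from a table of 56748 genes. They comprise 18 synthesis enzymes, 5 genes that control the sterol-responsive transcription factors SREBP1 and SREBP2, and 12 genes of uptake, trafficking, storage, efflux and turnover. RNA came from the whole brains of 12 adult C57BL/6 mice, each giving 1 library, with 2 females and 2 males in each of 3 arms. The LPS+DMA arm received lipopolysaccharide (LPS, an outer membrane molecule of bacteria that triggers innate immunity) and N,N-dimethylacetamide (DMA, an organic solvent also used as a drug carrier). LPS was given into the abdominal cavity at 0.5 mg/kg every day for 7 days, and DMA was given by the same route every day after the first LPS dose. The LPS arm received LPS alone, and the PBS arm received phosphate-buffered saline on the same schedule. All brains were collected on day 7, and the sources used here give no dose of DMA. The labels name no genetic modification in any arm, and no arm received DMA without LPS, so an effect of DMA alone cannot be told apart from one that needs LPS.

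The brain makes almost all of its own cholesterol, because lipoprotein cholesterol does not cross the blood-brain barrier to any large extent, and most of it ends up in myelin. Acetyl-CoA is turned into isoprenoid units and then farnesyl diphosphate in the early steps, and squalene is cyclised and trimmed to cholesterol in the late steps. When sterols in the endoplasmic reticulum run low, SCAP escorts SREBP to the Golgi, where it is cut and released to switch on the synthesis genes, whereas INSIG proteins hold it back when sterols are plentiful. Excess sterol activates the liver X receptors, which drive efflux transporters, and neurons clear cholesterol by converting it to 24-hydroxycholesterol.

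SREBP2 binds sterol response elements, usually next to a CCAAT box bound by the factor NF-Y, so the sequences just before the start sites of these genes are shown for 4 synthesis enzymes. Hmgcs1 was the sole gene, of those with a promoter in the table, that matched the sterol response letters searched. It was not among the 10 synthesis enzymes that fell in LPS+DMA against LPS brains, as given further on. Mvk, Nsdhl and Idi1 were among those 10. The RefSeq promoter table (build GRCm38.p6, 300 bases around each start, most of them before it) matched 28 of the 35 genes with 37 promoters. Capitals mark TCACNCCAC or CCAAT on either strand, so that ATTGG is CCAAT on the opposite strand. All 4 genes lie on the plus strand, and the sequences, read 5′ to 3′, lie at chr13:119690101-119690400 for Hmgcs1, chr5:114444019-114444318 for Mvk, chrX:72918271-72918570 for Nsdhl and chr13:8885356-8885655 for Idi1.
Hmgcs1: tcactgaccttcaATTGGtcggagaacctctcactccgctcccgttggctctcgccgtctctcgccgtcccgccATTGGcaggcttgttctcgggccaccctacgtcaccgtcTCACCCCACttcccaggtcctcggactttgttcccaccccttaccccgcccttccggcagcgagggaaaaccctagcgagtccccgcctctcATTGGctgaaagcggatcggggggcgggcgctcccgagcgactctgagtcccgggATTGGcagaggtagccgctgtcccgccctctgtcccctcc
Mvk: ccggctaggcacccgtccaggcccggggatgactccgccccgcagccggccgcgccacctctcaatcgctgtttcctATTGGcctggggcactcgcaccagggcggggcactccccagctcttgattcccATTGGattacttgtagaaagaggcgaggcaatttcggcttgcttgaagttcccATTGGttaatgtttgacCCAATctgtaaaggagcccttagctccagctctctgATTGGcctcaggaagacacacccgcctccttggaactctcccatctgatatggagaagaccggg
Nsdhl: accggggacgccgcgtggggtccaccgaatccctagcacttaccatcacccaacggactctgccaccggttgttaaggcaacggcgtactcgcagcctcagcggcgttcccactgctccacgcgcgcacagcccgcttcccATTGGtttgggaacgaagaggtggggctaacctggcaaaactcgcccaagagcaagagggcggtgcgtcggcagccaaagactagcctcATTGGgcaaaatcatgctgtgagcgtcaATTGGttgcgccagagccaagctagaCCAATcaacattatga
Idi1: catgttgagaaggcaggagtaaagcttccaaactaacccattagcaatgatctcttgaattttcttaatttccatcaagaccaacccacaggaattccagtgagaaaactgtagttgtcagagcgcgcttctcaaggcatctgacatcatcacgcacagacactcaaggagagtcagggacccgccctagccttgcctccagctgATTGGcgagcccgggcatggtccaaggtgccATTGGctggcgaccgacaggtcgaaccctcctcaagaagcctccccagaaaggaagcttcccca

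The Hmgcs1 promoter held TCACCCCAC with its first base 137 bases before the start and 4 CCAAT boxes, and the 2 motifs shared no base. The Mvk promoter held 5 CCAAT boxes, the Nsdhl promoter 4 and the Idi1 promoter 2, at 45 and 14 bases before its start. CCAAT was present in 14 of the 18 synthesis promoters (77.8%), in 5 of the 9 uptake and efflux promoters (55.6%), in 5 of the 10 promoters of the control genes and in 37.4% of all 32851 promoters in the table. TCACNCCAC was present in 1 of the 18 synthesis promoters, against 1.24% of all promoters. Acat2, which also fell in LPS+DMA against LPS brains, held neither motif. Every other synthesis enzyme with a promoter in the table held CCAAT, whether or not it was among those that fell. These matches describe letters in a 300-base window and were not tested.

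The deposited values are FPKM, fragments per kilobase of gene length scaled to the library, so levels can be set beside each other between genes. The scaling differed by arm. FPKM times length in kilobases summed to 1.03e+06 to 1.10e+06 in LPS+DMA, 916956 to 962575 in LPS and 951911 to 988684 in PBS libraries. Plain per-million scaling, used below as an alternative, makes this sum equal in all libraries. Library depth lay between 27.5 M and 41.4 M reads (M, megareads), with a median of 34.4 M. Tests used log2(FPKM + 1) of the 19571 genes with at least 0.5 FPKM in at least 2 libraries. A gene was called at an adjusted p under 0.05 (limma, Benjamini-Hochberg adjustment over all genes tested), and 34 of the 35 genes were tested. The libraries differed in the brain parts they held. Gabra6, which marks granule cells of the cerebellum, was at 0.17 FPKM or less in all 4 LPS+DMA libraries. It reached 114, 15.6 and 90.5 FPKM in LPS female 1, male 1 and male 2, 0 in LPS female 2, 74.6 FPKM in PBS female 1 and 0 in the other 3 PBS libraries. Below, 4 values of an arm stand in the order female 1, female 2, male 1, male 2.

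Summed over the pathway, synthesis transcripts were lowest in LPS+DMA brains. The mean log2 level over the 18 enzymes was 2.98, 2.73, 2.71 and 2.90 in LPS+DMA libraries, 3.20, 3.28, 3.41 and 3.34 in LPS libraries, and 3.12, 3.15, 3.24 and 3.33 in PBS libraries. Every LPS+DMA library lay below every LPS and every PBS library. The same mean over the 12 uptake and efflux genes was 3.03 ± 0.10 in LPS+DMA, 3.19 ± 0.09 in LPS and 3.12 ± 0.07 in PBS libraries (SD, n = 4 each), and these arms overlapped. The synthesis mean minus the uptake and efflux mean was -0.20 ± 0.128 in LPS+DMA, 0.12 ± 0.133 in LPS and 0.09 ± 0.129 in PBS libraries (SD, n = 4 each), a description without a test.

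**Figure D1:**
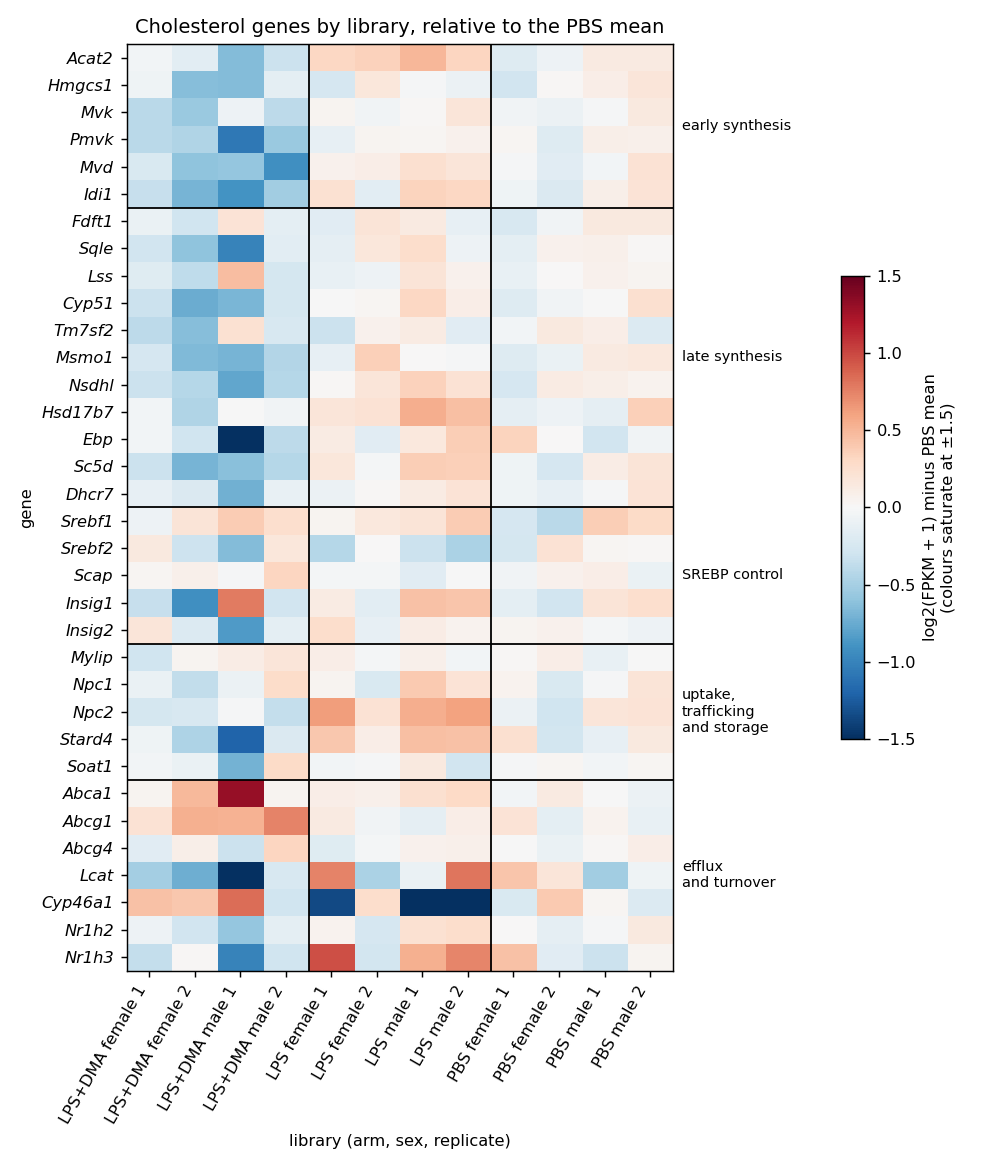
Heatmap of the 34 tested genes (rows, by role) in 12 libraries (columns), coloured by log2(FPKM + 1) minus the gene's PBS mean and saturating at 1.5 on either side. Most synthesis rows are blue in the 4 LPS+DMA columns, whereas Abcg1 is red there and Cyp46a1 is dark blue in LPS female 1, male 1 and male 2.

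LPS+DMA was compared with LPS alone to ask what DMA added to the LPS-treated brain. Of the 34 genes, 14 were called, 12 lower and 2 higher, against 9.67% of all genes tested in either direction, 3.88% lower and 5.79% higher. Over all genes these were 759 lower and 1133 higher calls, and plain per-million scaling turned the split to 2285 lower and 587 higher, with 18 of the 34 genes lower and 1 higher. Of the 17 synthesis enzymes tested, 10 fell and none rose. All 17 had a change below 0, with a median of -0.57 on the log2 scale, against a median of 0.010 over all genes. In 12 of the 17, every LPS+DMA library lay below every LPS library, a pattern held by 5.98% of all genes. Among the 10, mean FPKM in LPS+DMA relative to LPS brains fell by 28.4% for Mvk, the smallest drop, and fell by 47.4% for Idi1, the largest.

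The early enzymes, which build isoprenoid units, fell in 5 of 6 tested cases. Idi1 (isopentenyl diphosphate isomerase, GRCm39 chr13:8935537-8942487) had 5.31, 3.95, 3.30 and 4.60 FPKM in LPS+DMA libraries, against 8.41, 6.17, 9.11 and 8.94 FPKM in LPS libraries. Its highest LPS+DMA library was below its lowest LPS library, and the log2 change was -0.79 ± 0.152 (SE; adjusted p = 0.0209). Mvd, the decarboxylase that yields isopentenyl diphosphate (chr8:123160340-123170161), had 6.25, 4.58, 4.68 and 3.47 FPKM in LPS+DMA libraries, against 7.88, 8.09, 9.05 and 8.59 FPKM in LPS libraries. The LPS values of Mvd were close together and all above the LPS+DMA values, with a log2 change of -0.73 ± 0.146 (SE; adjusted p = 0.0213).

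Acat2, the thiolase that condenses acetyl-CoA units (chr17:13161777-13179634), had 13.0, 11.9, 8.19 and 10.5 FPKM in LPS+DMA libraries, against 16.9, 17.4, 19.4 and 17.0 FPKM in LPS libraries. No library of one arm reached the other, and the log2 change was -0.66 ± 0.140 (SE; adjusted p = 0.0227). Pmvk, which phosphorylates mevalonate phosphate (chr3:89361848-89376320), had 12.7, 12.2, 7.61 and 11.3 FPKM in LPS+DMA libraries, against 15.7, 17.6, 17.4 and 17.98 FPKM in LPS libraries. LPS+DMA male 1 was the lowest of the 12 libraries for both Acat2 and Pmvk, and Pmvk changed by -0.62 ± 0.146 (log2, SE; adjusted p = 0.0279).

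Mvk, mevalonate kinase, was outside the 12 genes that the naming rule took and was added after its values were seen. It had 3.63, 3.15, 4.82 and 3.66 FPKM in LPS+DMA libraries, against 5.29, 4.91, 5.18 and 5.93 FPKM in LPS libraries. LPS+DMA male 1 came close to LPS female 2 without crossing it, and the log2 change was -0.40 ± 0.108 (SE; adjusted p = 0.0417). Hmgcs1, the synthase that forms HMG-CoA and the most abundant member at a mean of 48.1 FPKM over the 12 libraries, had 50.1, 33.3, 32.9 and 47.3 FPKM in LPS+DMA libraries, against 43.6, 58.7, 51.6 and 49.2 FPKM in LPS libraries. Its arms overlapped and it was not called, at a log2 change of -0.32 ± 0.164 (SE; adjusted p = 0.218). Fdps, which makes farnesyl diphosphate, stood at 0.0278 to 0.338 FPKM in all 12 libraries, on 4 to 43 reads, and was too low to test. Reads of genes with near-identical copies may have been split or dropped by the counting, so the level of Fdps is uncertain.

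Among the late enzymes, which run from squalene to cholesterol, 5 of 11 fell. Sc5d, the sterol desaturase (chr9:42162891-42175552), had 12.8, 9.67, 10.2 and 11.8 FPKM in LPS+DMA libraries, against 18.4, 16.0, 21.3 and 21.0 FPKM in LPS libraries. It gave the lowest adjusted p of the 34 genes, at a log2 change of -0.73 ± 0.120 (SE; adjusted p = 0.0186), and its arms did not overlap. Nsdhl, a dehydrogenase that removes a methyl group from the sterol ring (chrX:71962163-72002120), had 5.48, 5.05, 3.72 and 5.01 FPKM in LPS+DMA libraries, against 7.20, 8.16, 9.33 and 8.42 FPKM in LPS libraries. The gap between the arms was clear of both ranges, with a log2 change of -0.68 ± 0.134 (SE; adjusted p = 0.0213).

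Cyp51, the demethylase that acts on lanosterol (chr5:4131145-4154746), had 14.2, 10.3, 10.8 and 14.7 FPKM in LPS+DMA libraries, against 17.8, 18.3, 22.4 and 19.3 FPKM in LPS libraries. All LPS+DMA values were lower, and the log2 change was -0.61 ± 0.131 (SE; adjusted p = 0.0238). Msmo1, the oxidase of the next demethylation steps, had 10.8, 7.90, 7.73 and 9.41 FPKM in LPS+DMA libraries, against 11.999, 17.1, 13.1 and 12.9 FPKM in LPS libraries. LPS+DMA female 1 lay just under LPS female 1, the lowest of its arm, and the log2 change was -0.57 ± 0.146 (SE; adjusted p = 0.0367).

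Hsd17b7, the reductase of the same demethylation complex, had 3.83, 2.64, 3.96 and 3.80 FPKM in LPS+DMA libraries, against 4.63, 4.79, 6.22 and 5.79 FPKM in LPS libraries. Its arms did not overlap, and the log2 change was -0.48 ± 0.129 (SE; adjusted p = 0.0413). The remaining late enzymes were not called. Sqle, the epoxidase that commits squalene to sterols, and Dhcr7, the last reductase of one branch, had every LPS+DMA library below every LPS library, with log2 changes of -0.57 (adjusted p = 0.0628) and -0.36 (adjusted p = 0.146). Ebp, a sterol isomerase, had 6.98, 5.65, 1.53 and 5.22 FPKM in LPS+DMA libraries, against 7.91, 6.26, 8.12 and 9.62 FPKM in LPS libraries, and LPS+DMA male 1 alone was far below the rest. Fdft1 (squalene synthase), Lss (lanosterol synthase) and Tm7sf2 (a sterol reductase) showed overlapping arms and log2 changes of -0.10, -0.10 and -0.18, none of them called.

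**Figure D2:**
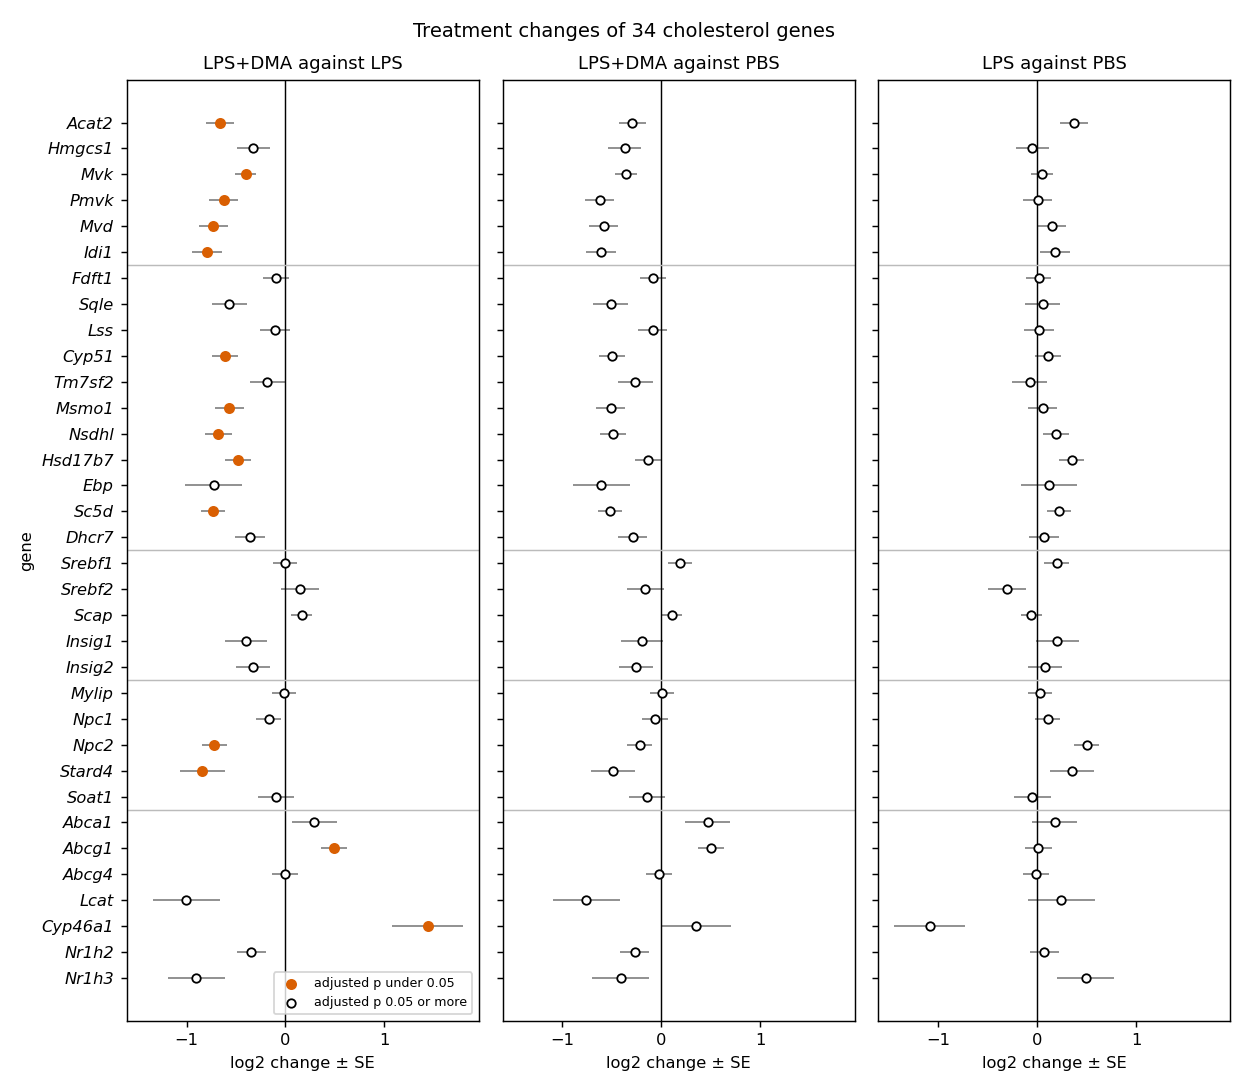
Log2 change of each of the 34 tested genes (points, with SE bars) in LPS+DMA against LPS, LPS+DMA against PBS and LPS against PBS, with genes in role order from top to bottom. Filled points, 14 in the first panel and none in the other panels, passed an adjusted p under 0.05, and the synthesis genes lie left of 0 in the first pair of panels.

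The genes that control SREBP were not called in LPS+DMA against LPS, in 0 of 5 cases. Insig1, which retains the SREBP complex in the endoplasmic reticulum and is itself an SREBP target, had 20.7, 13.6, 46.5 and 21.7 FPKM in LPS+DMA libraries, against 29.1, 23.8, 36.4 and 36.1 FPKM in LPS libraries. LPS+DMA female 1, female 2 and male 2 were below all LPS libraries, while LPS+DMA male 1 was the highest of all 12 (log2 change -0.40 ± 0.214, SE; adjusted p = 0.243). Without that library Insig1 was at -0.65 and was called. Scap, the SREBP escort, had 9.20, 9.57, 8.88 and 11.4 FPKM in LPS+DMA libraries, against 8.77, 8.75, 7.90 and 8.96 FPKM in LPS libraries, with a small overlap (log2 change 0.16 ± 0.105, SE; adjusted p = 0.333). Srebf1 and Srebf2, which encode the SREBP proteins, had log2 changes of -0.005 and 0.15, and Insig2, the second INSIG gene, one of -0.33, with overlapping arms in each case. The signs of Scap and Srebf2 turned under plain per-million scaling, which moved the median of all genes to -0.11 and that of the synthesis enzymes to -0.74.

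The 12 uptake, trafficking, storage, efflux and turnover genes moved in both directions. In LPS+DMA against LPS, 2 fell and 2 rose, and the median log2 change was -0.13. Npc2, the lysosomal protein that hands cholesterol to the membrane for export (chr12:84801336-84819926), had 9.87, 10.03, 11.9 and 9.13 FPKM in LPS+DMA libraries, against 19.1, 14.1, 18.02 and 18.8 FPKM in LPS libraries. The arms did not overlap, and the log2 change was -0.72 ± 0.126 (SE; adjusted p = 0.0192). Stard4, a cytosolic sterol carrier (chr18:33332408-33346915), had 7.57, 5.52, 2.89 and 6.68 FPKM in LPS+DMA libraries, against 10.9, 8.63, 11.3 and 11.2 FPKM in LPS libraries. LPS female 2 was the lowest of its arm but still above every LPS+DMA library, and the log2 change was -0.84 ± 0.225 (SE; adjusted p = 0.0414). It was -0.32 with a myelin term, -0.33 with a choroid plexus term and -0.52 without the 4 libraries with Gabra6 signal. Npc1, which works with Npc2 in the lysosome, Soat1, which esterifies cholesterol for storage, and Mylip, a ubiquitin ligase that removes lipoprotein receptors, were not called, at log2 changes of -0.17, -0.09 and -0.02.

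Abcg1, the transporter that moves cholesterol to lipoprotein particles (chr17:31276649-31336962), was the efflux gene that rose with no overlap between arms in the deposited FPKM. Like Mvk, it was added to the rule's genes after its values were seen. It had 10.9, 13.8, 13.7 and 16.1 FPKM in LPS+DMA libraries, against 10.3, 8.88, 8.36 and 9.98 FPKM in LPS libraries. Every LPS+DMA library was above every LPS library, a pattern held by 6.26% of all genes, and the log2 change was 0.49 ± 0.132 (SE; adjusted p = 0.0425). It was called in 7 of 25 alternative settings, and plain per-million scaling, at 0.31, ended the call. The nearest values were those of LPS+DMA female 1 and LPS female 1. FPKM times length in kilobases summed to 1.09e+06 in the former and 941730 in the latter. Plain per-million scaling therefore puts LPS+DMA female 1 below LPS female 1 for Abcg1, so the arms overlap under that scaling. Abca1, the transporter that loads newly formed lipoproteins, had 5.38, 7.68, 14.4 and 5.42 FPKM in LPS+DMA libraries, against 5.64, 5.56, 6.32 and 6.65 FPKM in LPS libraries. LPS+DMA male 1 was the highest of the 12, the other LPS+DMA values lay on both sides of the LPS range, and Abca1 was not called (log2 change 0.29 ± 0.229, SE; adjusted p = 0.430).

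Cyp46a1, the neuronal hydroxylase that turns cholesterol into 24-hydroxycholesterol (chr12:108300640-108328493), had 45.0, 44.1, 59.6 and 26.6 FPKM in LPS+DMA libraries, against 12.3, 39.6, 9.81 and 10.1 FPKM in LPS libraries and 28.0, 43.7, 33.8 and 28.4 FPKM in PBS libraries. The 3 low values were the LPS libraries with Gabra6 signal, while LPS female 2, without that signal, lay within the LPS+DMA and PBS ranges. PBS female 1, which had Gabra6 signal, was the lowest PBS library by a small margin. The log2 change in LPS+DMA against LPS was 1.44 ± 0.355 (SE; adjusted p = 0.0329), and it was 0.49 with a brain region term in the fit and 0.23 without the 4 libraries with Gabra6 signal, neither of them called.

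Lcat, which esterifies cholesterol on lipoproteins, had 8.36, 6.99, 3.55 and 10.2 FPKM in LPS+DMA libraries, against 21.3, 8.55, 11.4 and 22.3 FPKM in LPS libraries. Only LPS female 2 lay inside the LPS+DMA range, and Lcat was not called (log2 change -1.001 ± 0.341, SE; adjusted p = 0.0845). Nr1h3 and Nr1h2, the liver X receptors alpha and beta, had log2 changes of -0.90 (adjusted p = 0.0696) and -0.34 (adjusted p = 0.143), and Abcg4, a neuronal sterol transporter, one of -0.01, none of them called. Nr1h3 was scarce, with 0.194 to 1.42 FPKM in LPS+DMA libraries and 0.982 to 3.67 FPKM in LPS libraries, on as few as 16 reads.

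**Figure D3:**
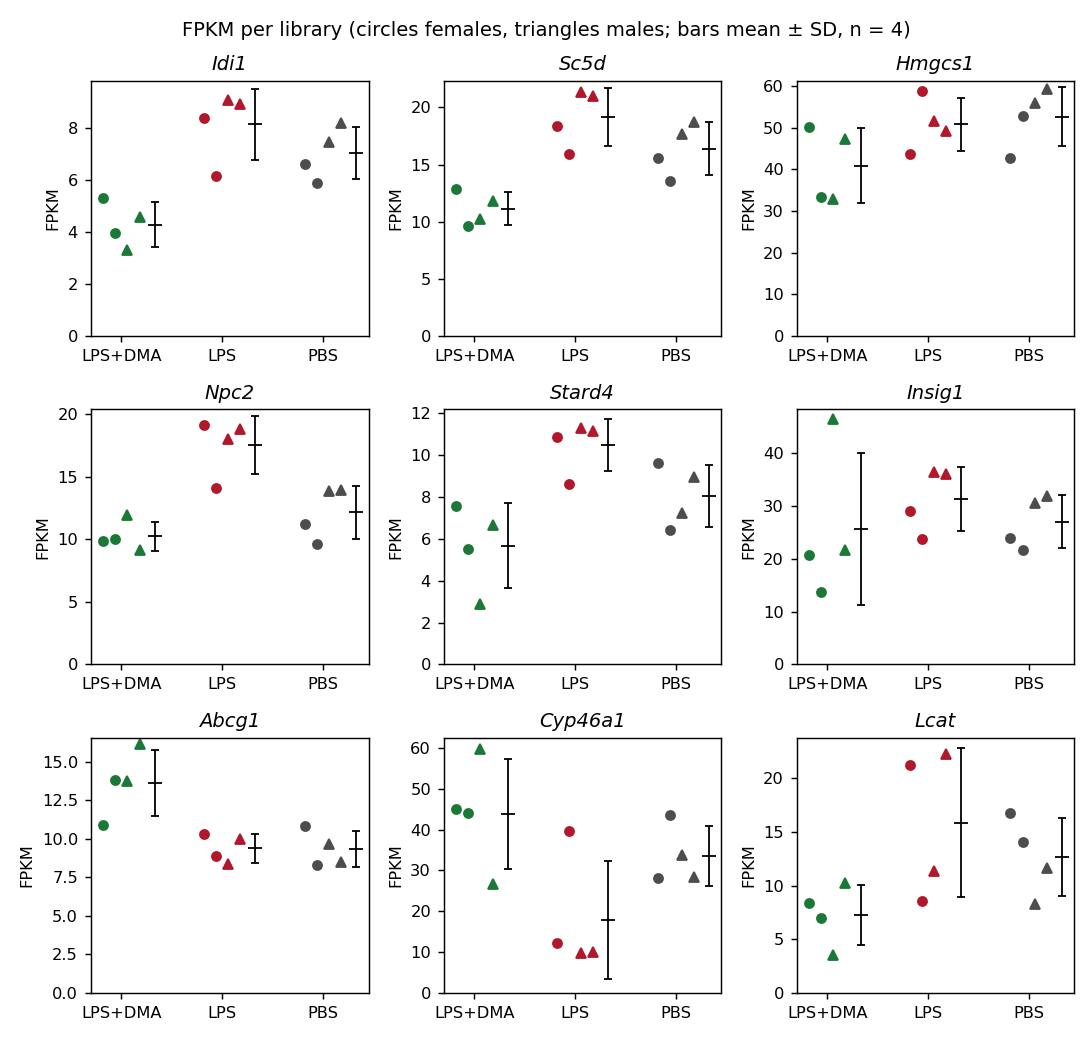
FPKM of 9 genes in each library by arm (circles females, triangles males, bars mean ± SD, n = 4). LPS+DMA points lie below all LPS points for Idi1, Sc5d, Npc2 and Stard4 and above them for Abcg1, whereas Cyp46a1 is low in 3 LPS libraries and near 40 FPKM in the fourth.

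Other measures also differed between LPS+DMA and LPS libraries, not all in the same direction. The 11 myelin markers summed to 530 to 1168 FPKM in LPS+DMA, 1229 to 2267 FPKM in LPS and 619 to 1690 FPKM in PBS libraries. All 11 had changes below 0 in LPS+DMA against LPS, with a median of -1.08 on the log2 scale, and none was at 0 in any library. In tissue RNA, fewer cells of a type and less RNA per cell cannot be told apart. Of 9 choroid plexus markers 6 fell, and they summed to 22.6 to 497 FPKM in LPS+DMA, 253 to 2010 FPKM in LPS and 36.4 to 413 FPKM in PBS libraries. Of 7 microglial markers 4 fell, and they summed to 91.8 to 127 FPKM in LPS+DMA, 178 to 230 FPKM in LPS and 114 to 139 FPKM in PBS libraries, with no overlap between LPS+DMA and LPS. Of 7 cortical and hippocampal markers 5 rose, whereas 0 of 7 cerebellar markers were called at a median of -2.71 (log2). Of 8 neuronal markers 2 rose and 2 fell, of 8 astrocyte markers 1 rose and 1 fell, and none of the endothelial or red cell markers was called. All 5 red cell markers had changes below 0, at a median of -1.51 (log2), and they summed to 29.0 to 296 FPKM in LPS+DMA, 243 to 946 FPKM in LPS and 71.1 to 116 FPKM in PBS libraries. LPS+DMA male 1 had the lowest myelin mean and was the lowest of the 12 libraries in 17 of the 34 genes and the highest in 6. The part of the microglial, red cell, neuronal and astrocyte differences in the changes of the 35 genes was not tested.

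Single libraries and fits with a marker term were set beside the myelin, choroid plexus and regional differences. PBS female 2 had a mean log2 level of the myelin markers of 5.06, below 3 of the 4 LPS+DMA libraries (5.85, 5.86 and 5.96), and its synthesis mean of 3.15 was above all 4 of them. In the other direction, LPS+DMA male 1 had the lowest myelin mean (4.41) and the lowest synthesis mean (2.71). LPS male 1 had the highest of both (6.80 and 3.41). LPS female 2 had no Gabra6 signal, and 0.0389% of its reads were nuclear rRNA, against 2.88% to 9.79% in the other libraries. It exceeded every LPS+DMA library in 13 of 17 synthesis enzymes and in 2 of the 12 uptake and efflux genes, against 16.3% of all genes. PBS female 2 did so in 10 of 17 synthesis enzymes and 1 of the 12 others (15% of all genes), PBS male 1 in 12 and 2 (18.3% of all genes), and PBS male 2 in 13 and 5 (18.7% of all genes). The median change of the 17 synthesis enzymes in LPS+DMA against LPS was -0.64 with a brain region term, -0.47 with a myelin term, -0.44 with a choroid plexus term and -0.55 without the 4 libraries with Gabra6 signal. All 17 stayed below 0 in each of these. Leaving out the 4 libraries keeps 1 LPS library, LPS female 2, so that value is not separate from the counts of LPS female 2 above. The median SE of the synthesis enzymes was 0.26 with the choroid plexus term, against 0.15 in the main fit. None of the 34 genes was called with any of the 3 terms, in fits that called 2, 10 and 0 of all genes. None was called when LPS female 1, LPS male 1 or LPS male 2 was left out. Single called genes moved by over 1.5 times in these fits. With a myelin term Pmvk was at -0.32, Idi1 at -0.51, Acat2 at -0.44 and Cyp46a1 at 0.83 (log2), and with a choroid plexus term Idi1 was at -0.49, Sc5d at -0.46 and Cyp46a1 at 0.83. Msmo1 was further from 0, at -0.88 with a brain region term and -0.89 without the 4 libraries, while Idi1 was at -0.47 without those libraries.

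**Figure D4:**
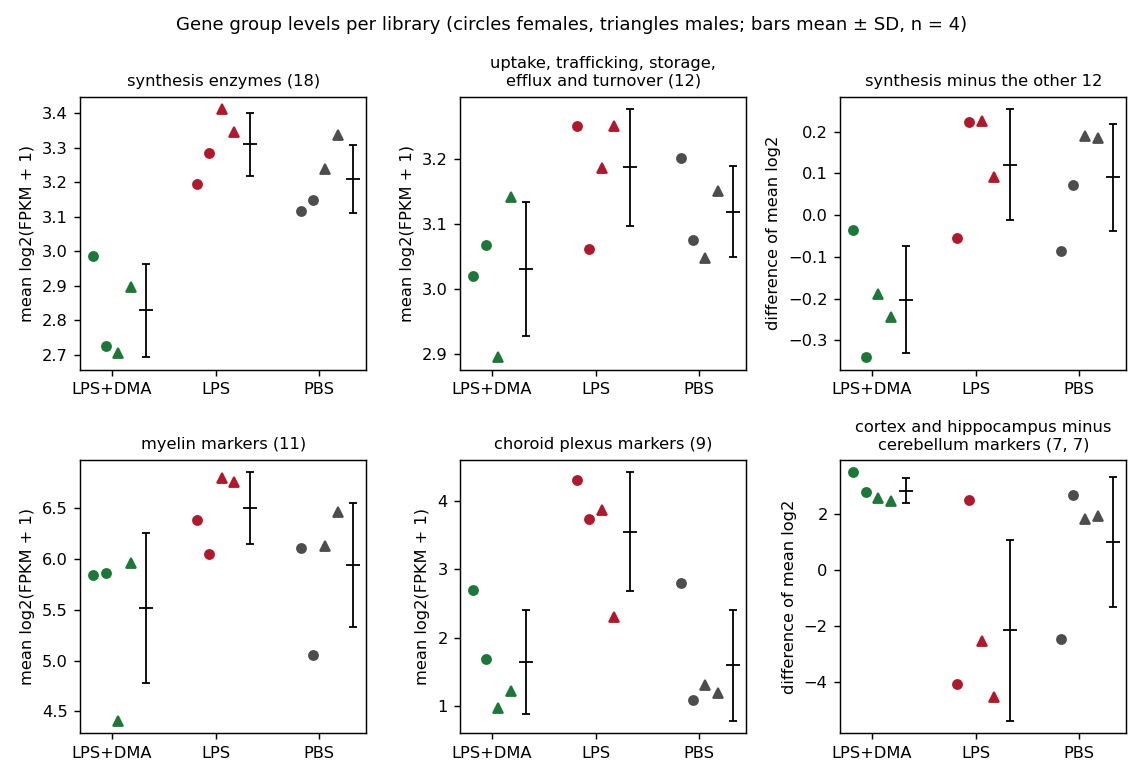
Per-library means of log2(FPKM + 1) for the synthesis enzymes, the 12 uptake and efflux genes, their difference, and marker lists of myelin, choroid plexus and brain region, by arm (circles females, triangles males, bars mean ± SD, n = 4). The synthesis means of LPS+DMA libraries (2.71 to 2.98) lie below all others, while the myelin means of the arms overlap between LPS+DMA and PBS.

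LPS+DMA was also compared with PBS, which shows where treated brains stood relative to untreated ones and shares the LPS+DMA libraries with the comparison above. None of the 34 genes was called by limma, against 0.0102% of all genes (2 of 19571), and 12 of the 34 had an unadjusted p under 0.05, against 11.4% of all genes. All 17 synthesis enzymes had changes below 0, with a median of -0.49 (log2), and the lowest adjusted p was 0.324. In 8 of the 17 every LPS+DMA library lay below every PBS library, against 2.93% of all genes, namely Pmvk, Mvd, Idi1, Sqle, Cyp51, Msmo1, Nsdhl and Sc5d. Idi1 had 6.63, 5.91, 7.48 and 8.20 FPKM in PBS libraries, and Sc5d 15.6, 13.5, 17.7 and 18.7 FPKM. Mean FPKM of Idi1 was 4.29 ± 0.862 in LPS+DMA and 7.05 ± 0.996 in PBS brains, and that of Sc5d was 11.1 ± 1.45 in LPS+DMA and 16.4 ± 2.31 in PBS brains (SD, n = 4 each).

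The median synthesis change against PBS was -0.51 without the 4 libraries with Gabra6 signal, -0.41 with a myelin term and -0.37 without LPS+DMA male 1. All 17 enzymes stayed below 0 in each. Abcg1 had 10.8, 8.29, 9.65 and 8.49 FPKM in PBS libraries. In the deposited FPKM these were all below the LPS+DMA values, though PBS female 1 and LPS+DMA female 1 were nearly level. Plain per-million scaling puts LPS+DMA female 1 below PBS female 1, so these arms overlap under it as well. In the deposited FPKM the log2 change of Abcg1 was 0.50 ± 0.132 (SE; adjusted p = 0.324), and every LPS+DMA library was above every PBS library in 3.71% of all genes. Abca1 had a log2 change of 0.47 and Lcat one of -0.76 against PBS, and neither was called.

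LPS was compared with PBS to see whether daily LPS alone moved these genes, and each arm's libraries also serve in the comparisons above. None of the 34 was called by limma, against 0.0102% of all genes, and 4 had an unadjusted p under 0.05, against 11% of all genes. The median change of the synthesis enzymes was 0.07 (log2), with 15 of 17 above 0, and with a choroid plexus term it was -0.04, with 12 of 17 below 0. Acat2 had 16.9, 17.4, 19.4 and 17.0 FPKM in LPS libraries, against 11.6, 12.7, 14.8 and 14.9 FPKM in PBS libraries. Npc2 had 19.1, 14.1, 18.02 and 18.8 FPKM in LPS libraries, against 11.2, 9.61, 13.8 and 14.0 FPKM in PBS libraries. In both genes every LPS library was above every PBS library, a pattern held by 3.59% of all genes, at log2 changes of 0.37 (adjusted p = 0.374) and 0.50 (adjusted p = 0.277). Hsd17b7 (0.35) and Cyp46a1 (-1.09) had the other low unadjusted p values, and without LPS female 2 both Npc2 and Cyp46a1 were called, as were 3.43% of all genes. That setting keeps only the 3 LPS libraries with Gabra6 signal, a signal that 1 PBS library had, so treatment and brain region cannot be told apart in it.

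The treatment changes were compared between females and males over all genes. The difference was called for 0 of the 34 genes in every comparison by limma. At an unadjusted p under 0.05 it was 1 gene in LPS+DMA against LPS (Ebp; 5.15% of all genes), 1 in LPS+DMA against PBS (Acat2; 5.67% of all genes) and 0 in LPS against PBS (2.51% of all genes), all with 2 mice per sex and arm.

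Related lipid genes were followed beside the 35. Of 12 fatty acid synthesis genes driven by SREBP1, 4 fell in LPS+DMA against LPS, against 3.88% of all genes, with a list median of -0.46 (log2). The list was not fitted against brain region or myelin as a set. Scd1, the stearoyl-CoA desaturase, had 42.7, 31.5, 34.9 and 62.5 FPKM in LPS+DMA libraries, against 65.9, 59.0, 85.8 and 79.0 FPKM in LPS libraries. Only LPS+DMA male 2 reached into the LPS range, and the log2 change was -0.78 ± 0.206 (SE; adjusted p = 0.0399). Elovl5, a fatty acid elongase, fell by 0.61, Me1, malic enzyme, by 0.69, and Acss2, an acetyl-CoA synthetase, by 0.52 on the log2 scale. Fasn, the fatty acid synthase itself, was not called, at a log2 change of 0.26.

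Of 19 other sterol transport and oxysterol genes, 2 fell and 1 rose, against 3.88% lower and 5.79% higher of all genes, and the median was 0.08. Pltp, the phospholipid transfer protein, had 20.3, 15.7, 7.32 and 20.9 FPKM in LPS+DMA libraries, against 33.6, 26.2, 30.7 and 32.2 FPKM in LPS libraries. The arms did not overlap (log2 change -0.98 ± 0.255, SE; adjusted p = 0.0374). Cyp27a1, the sterol 27-hydroxylase, fell by 1.47 (log2), with 2.14 FPKM in LPS female 2, inside the LPS+DMA range, and 7.26 to 11.8 FPKM in the LPS libraries with Gabra6 signal. Nceh1, a cholesteryl ester hydrolase, averaged 31.9 ± 2.34 FPKM in LPS+DMA and 21.8 ± 3.13 FPKM in LPS brains (SD, n = 4 each; log2 change 0.53). None of 10 isoprenoid and SREBP processing genes was called (median -0.004). No gene of these lists was called in the other pair of comparisons.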

How the data were processed

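Brain RNA from 12 mice was sequenced after poly-A selection, per the labels' protocols. The deposited FPKM table was made by the authors on GRCm39, and the submitters' processing notes name STAR, HISAT2 2.2.1, GATK, edgeR 4.0.16, fastp, DESeq2 1.42.0 and featureCounts 2.0.6 without roles. The deposited table also lists each gene's length, an other value used to recover reads. FPKM times length came out as whole reads within 0.1 for 100% of values of up to 1000 reads. Both stranded and unstranded preparations are described, so overlapping genes are uncertain.

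Tests used R 4.3.3 and limma 3.58.1 on log2(FPKM + 1), which understates changes of low genes, with 1 fit of sex and treatment over 12 libraries, trended and robust moderation, and Benjamini-Hochberg adjustment over 19571 genes. The script was tested on simulated data. The rule named up to 12 called genes per comparison and the highest and lowest change per role. The 35 genes and all lists were chosen with earlier results of these data known. Promoters came from RefSeq (GRCm38.p6). No pair of libraries matched within sampling noise (chi-square per degree of freedom of 24.8 or more in 66 pairs).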

Additional observations from a re-analysis of the deposited data

Results flagged for a closer look

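Of 105 sets of 4 libraries (35 genes in 3 arms), 5 held a library whose gap to its nearest neighbour passed Dixon's critical value for its share of the arm's range, and chance gives about 1 in 20. Hsd17b7 stood at 2.64 FPKM in LPS+DMA female 2, against 3.80 to 3.96 FPKM in the other LPS+DMA libraries, and at 5.34 FPKM in PBS male 2, against 3.51 to 3.70 FPKM in the other PBS libraries. Stard4 was at 8.63 FPKM in LPS female 2, against 10.9 to 11.3 FPKM in the other LPS libraries. Cyp46a1 was at 39.6 FPKM in LPS female 2, the LPS library with no Gabra6 signal, against 9.81 to 12.3 FPKM in the rest of the arm. Fdps, too low to test, was at 0.249 FPKM in LPS male 2, against 0.140 to 0.156 FPKM in the other LPS libraries.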

How the results depend on the processing

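In LPS+DMA against LPS the 14 called genes kept their direction in all 25 alternatives, but the number called ran between 0 and 15 when 1 library was left out. It was 0 without LPS female 1, LPS male 1 or LPS male 2, 7 without LPS+DMA female 2 and 8 without PBS male 2. It was also 0 with only the 2 arms compared, with a brain region, myelin or choroid plexus covariate, and without the 4 libraries with Gabra6 signal, which leaves 1 LPS library, assumed to vary like the other arms. Without a filter on low values it was 1, when 83 of all genes were called. Calls of all genes dropped as well, to 7, 11 and 22 without LPS male 1, LPS female 1 or LPS male 2. Plain per-million scaling called 19, without Abcg1, and moved the median of all genes to -0.11. The other settings gave 10 to 15. In LPS against PBS the number was 0 to 2 with 1 library left out (2 without LPS female 2, when 672 of all genes were called) and 0 otherwise, and in LPS+DMA against PBS it was 0 throughout.

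Genes that were not called changed sign as follows (log2, LPS+DMA against LPS). Per-million scaling gave Srebf2 -0.0398 and Scap -0.0125. The brain region covariate gave Srebf2 -0.2184, Mylip 0.0293 and Npc1 0.0206. The myelin covariate gave Srebf1 0.0341, Soat1 0.1869, Abca1 -0.1710 and Abcg4 0.1911, and the choroid plexus covariate Npc1 0.1519, Soat1 0.1609 and Abca1 -0.0758. Without the 4 libraries with Gabra6 signal Srebf2 was -0.0742, Insig2 0.0366 and Nr1h3 0.0003. With 1 library left out the ranges were -0.1809 to 0.0038 for Fdft1, -0.2655 to 0.0051 for Lss, -0.0764 to 0.0504 for Srebf1, -0.0765 to 0.0873 for Mylip, -0.2663 to 0.1067 for Soat1 and -0.1136 to 0.1246 for Abcg4. The cause was not tested.

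The replicate numbers were not taken to pair the mice. Deviations of same-numbered females and males correlated at 0.036 and -0.071 in LPS+DMA and LPS, -0.057 and 0.135 in LPS+DMA and PBS, and 0.45 and -0.022 in LPS and PBS, so not every pair was above 0.1. With a replicate block 12 genes were called in LPS+DMA against LPS and 0 in the other comparisons. Voom on recovered reads called 13. The planned count models by other tools were not run. Differences between the sexes were also 0 under 4 settings chosen after the data were seen.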
